A study of Mus musculus with 96 samples.

Results

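The solute carriers of families 5, 6, 7, and 22 were taken as every gene symbol made of Slc5a, Slc6a, Slc7a, or Slc22a and a number, which gave 69 of 41575 symbols in the count table: 11 of family 5, 18 of family 6, 15 of family 7, and 25 of family 22. Symbols that carry a further letter, such as Slc6a20b and Slc5a4b, lay outside the rule. RNA was counted in 96 libraries from 16 tissues (kidney, bladder, liver, stomach, intestine, rectum, heart, vascular, lung, spleen, cortex, hippocampus, bone, cartilage, muscle, and adipose) of wild-type and Scx-/- mice, all aged 3 weeks, with 3 libraries per tissue and genotype. Scx encodes scleraxis, a transcription factor of tendon and ligament progenitors, and the study asked how its loss changes expression across organs. The sources used here give neither the sex nor the strain of the mice, nor how the Scx-/- allele was made, nor which libraries share a mouse. The p-values below measure the spread between libraries only. That spread was estimated largely over all genes together, so a p or SE can understate the scatter of a single carrier. The series' design text speaks of limb cells, whereas the labels name whole tissues, and the labels were followed.

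These carriers are membrane proteins that move small molecules into and out of cells. Family 5 couples sugars, myo-inositol, iodide, vitamins, and short acids to sodium, and family 6 couples neurotransmitters, osmolytes, creatine, and neutral amino acids to sodium and often chloride. Family 7 moves amino acids, in part as light chains that reach the membrane only with a heavy chain, Slc3a1 or Slc3a2, and family 22 moves organic anions, organic cations, and carnitine. In the kidney, carriers of all these families line the proximal tubule, where filtered sugars and amino acids are taken back and drugs and metabolites are secreted.

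Scx itself had 80 counts in 12 of 48 wild-type libraries (7, 3, and 0 counts in the kidneys and 0 in the livers) and 9 counts in 1 of 48 Scx-/- libraries. That library, labelled Scx-/- cartilage replicate 1, had 37.2 CPM of Scx, above the 3 wild-type cartilage libraries (0, 28.2, and 3.63 CPM). Scx thus did not bear out its label, though whether the allele can still yield counts is not given. Elsewhere Scx checked few labels at this depth. Depth was 11244 to 1658192 counts per library (median 251640), and replicates differed by more than counting error. The heart library of wild-type replicate 2 was the smallest and, at 5158 CPM (counts scaled to a common library total) summed over 5 kidney markers, stood apart from the other heart libraries (the median of all 6 was 81.6 CPM). In kidney that list summed to 18390 to 34630 CPM. The adipose libraries carried a mean of 301200 CPM of 5 pancreatic acinar genes, while adipose and brown fat markers were highest in the vascular libraries and vascular markers in bladder. Cartilage libraries held a mean of 82270 CPM of 3 muscle markers against 5612 CPM of 3 cartilage markers, and bone libraries 13440 to 57460 CPM of the muscle markers. Levels in adipose, vascular, cartilage, and bone are given under those labels only. In bulk tissue, fewer cells of a type and less RNA per cell cannot be told apart.

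Of the 69 carriers, 64 had a count in at least 1 library and 5 were listed at 0 in all 96: Slc6a3 (the dopamine transporter), Slc6a5 (a glycine transporter of inhibitory neurons), Slc22a12 (the urate transporter URAT1), Slc22a16 (a carnitine carrier), and Slc22a20 (an organic anion carrier). Slc22a12 was at 0 in all 6 kidney libraries, where its protein is known to act. Gatm, an enzyme of creatine synthesis that kidney is known to express strongly, was also listed at 0 in every library, so a 0 in this table was not read as absence of a transcript. Slc22a12 shares 30.1% of its exon bases with Nrxn2 on the opposite strand, and the sources used here do not say whether counting used strand. Slc6a9 shares 30.2% with other genes and had 872 counts, and Slc6a3, Slc6a5, Slc22a16, and Slc22a20 share 0%. The part of such overlap in the values at 0 was not tested. On average 18.8 ± 9.12 carriers (SD, n = 96 libraries) had a count, from 5 to 47, with 38 to 47 in kidney and 5 to 17 in adipose. With each library thinned to 50000 counts, or left whole where smaller, the kidney range was 32 to 36 and the adipose range 3 to 7.

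**Figure D1:**
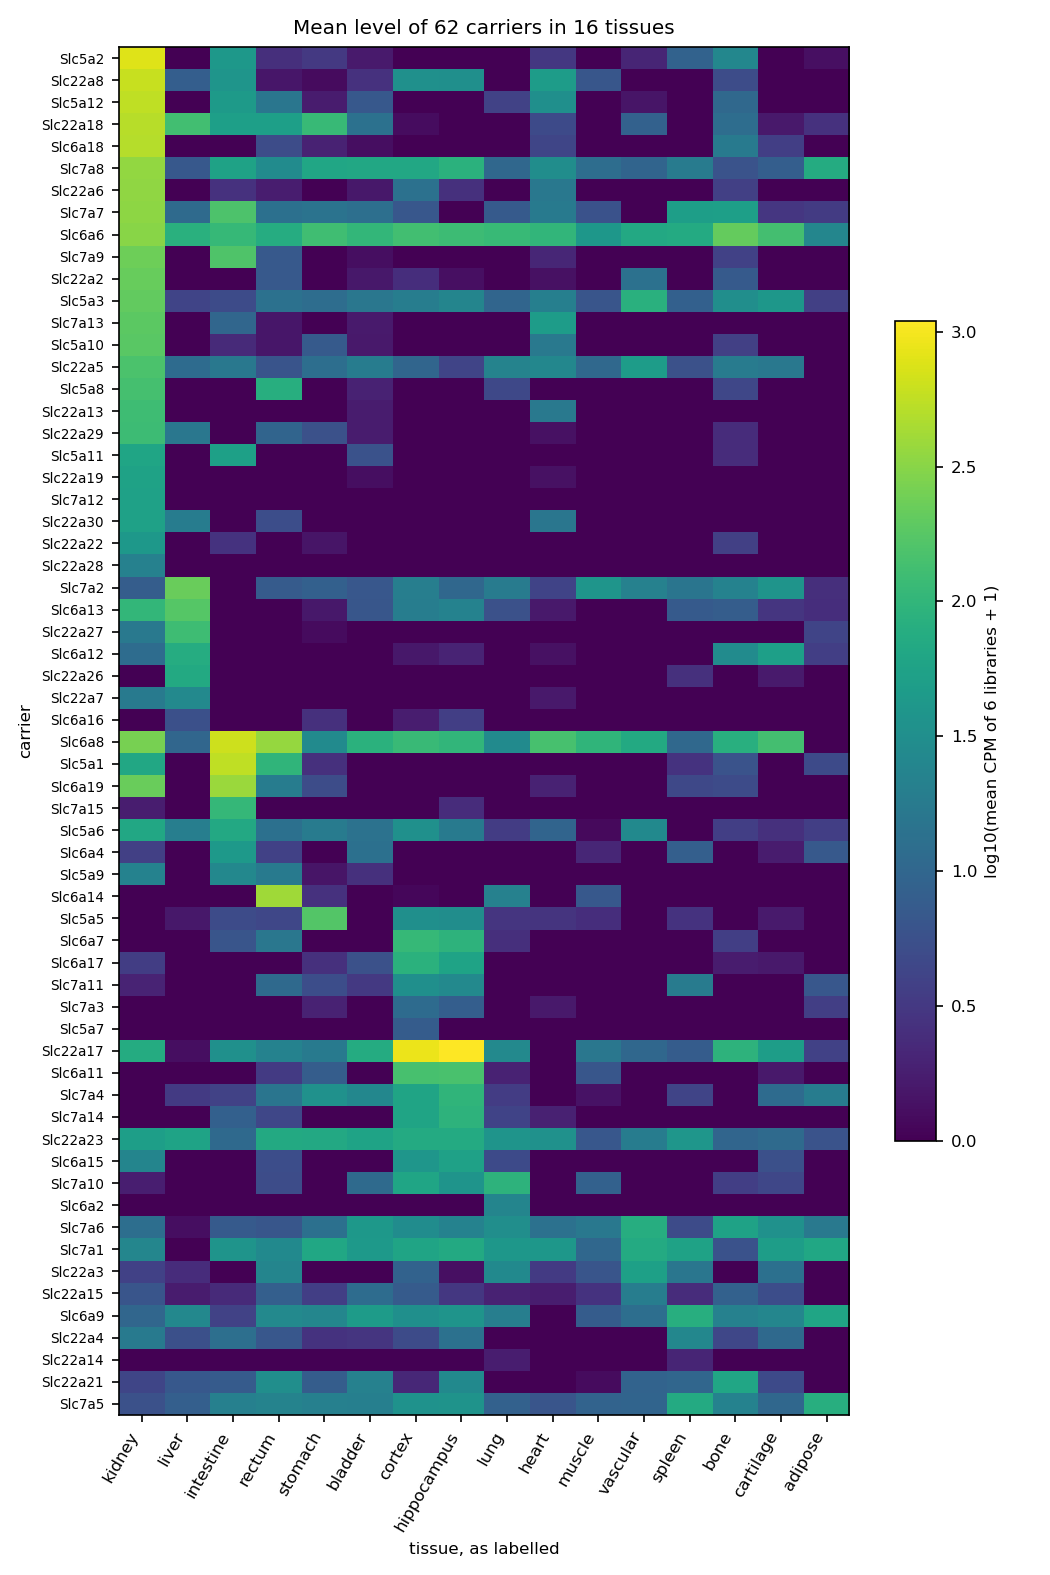
Mean CPM of the 6 libraries of each tissue (colour, log10 of CPM + 1) for 62 of the 64 carriers with a count, in rows ordered by the tissue of their highest mean. The block at the top holds 24 of the 25 carriers that were highest in kidney, and cortex and hippocampus share most of their bright rows.

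The kidney held the highest mean level of 25 carriers, more than any other tissue. Intestine and liver held 7 each, hippocampus and cortex 6 each, vascular 4, spleen 3, lung 2, and adipose, bone, rectum, and stomach 1 each. These 25 were 39.1% of the 64 carriers, whereas 7.33% of the 22493 genes with a count were highest in kidney. The median share of a carrier's 16 tissue means that lay in its highest tissue was 53.6%, against 35.9% over those genes. The same tissue was highest in wild-type and Scx-/- libraries for 46 of 63 carriers counted in both, and for 15 carriers all 6 libraries of 1 tissue lay above the other 90, as they did for 3.17% of all 22493 genes.

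**Figure D2:**
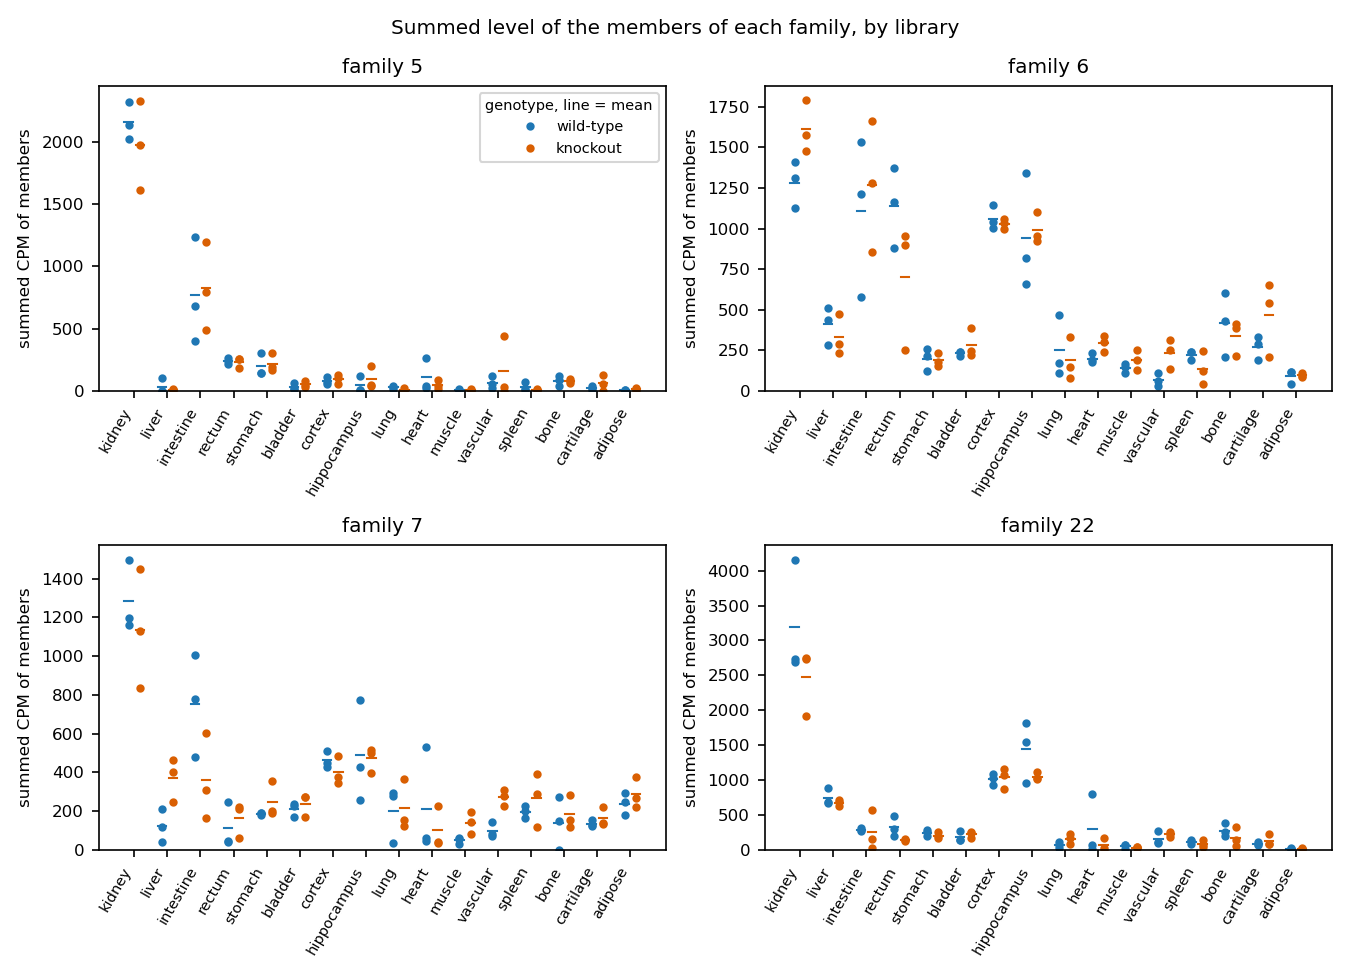
Summed CPM of the members of each family (y axis) in every library, by tissue and genotype, with a line at the mean of 3 libraries. Family 5 in wild-type kidney lay at 2022 to 2321 CPM and in wild-type liver at 0 to 106 CPM, and family 22 reached 4159 CPM in 1 wild-type kidney library.

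Whether a carrier was higher in 1 tissue than in each of the other 15 was tested with edgeR's quasi-likelihood test on all 96 libraries, taking the largest p of the 15 comparisons and adjusting over 22493 genes. At an adjusted p under 0.05, 20 carriers were called highest in 1 tissue, against 4.48% of all genes tested. Kidney took 13 of them, where 0.582% of all genes were called, liver 3, intestine 2, and rectum and stomach 1 each. Of the 20 calls, 12 were made in all 12 alternative fits of both genotypes, and the margins below are log2 differences from the next tissue in that fit.

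Of the family 5 carriers with their highest mean in kidney, Slc5a2, Slc5a10, and Slc5a12 were called there, and Slc5a3, Slc5a8 (a short acid carrier; margin 1.12, adjusted p = 0.663), and Slc5a11 (a myo-inositol carrier; margin 1.07, adjusted p = 1.0) were not. Slc5a2 (SGLT2, which takes back most filtered glucose; chr7:128265657-128272430, GRCm38) had 903, 1027, and 730 CPM in wild-type and 805, 381, and 792 CPM in Scx-/- kidneys. Its margin over intestine was 5.03 (adjusted p = 2.55e-10), and 20.6% of its exon bases are shared with BC017158 on the opposite strand. Slc5a12, a sodium-coupled lactate carrier, lay at 367 to 829 CPM in the 6 kidney libraries, a margin of 3.40 (adjusted p = 3.93e-06). Slc5a10, a mannose and fructose carrier, lay at 130 to 295 CPM, a margin of 4.95 (adjusted p = 3.62e-05), and 16.6% of its exon bases overlap Fam83g. For these 3 carriers every kidney library was above the other 90. For Slc5a12 and Slc5a10 the highest of those 90 was the heart library with kidney markers, at 178 and 88.9 CPM.

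Slc5a1 (SGLT1, the glucose and galactose carrier of the gut; chr5:33104219-33162870) was the intestine's counterpart. It had 806, 463, and 383 CPM in wild-type and 382, 533, and 793 CPM in Scx-/- intestine, all above the other 90 libraries. The margin was 2.45 over kidney (adjusted p = 0.00279, called in 11 of 12 alternative fits), where the mean was 65.2 ± 30.7 CPM (SD, n = 6). Slc5a5, the sodium iodide symporter, was highest in stomach, a tissue known to concentrate iodide, at 95.7 to 281 CPM. Its margin over cortex was 2.47 (adjusted p = 0.00129, called in 11 of 12 alternative fits). Slc5a3, a myo-inositol carrier of osmotically stressed cells, had 202 ± 75.6 CPM in kidney (n = 6) and did not pass the test (adjusted p = 0.0665). Slc5a6, a biotin and pantothenate carrier, had nearly the same mean in intestine (67.7 ± 112 CPM) and kidney (66.0 CPM) and no margin past the test (adjusted p = 1.0), with 4 of 6 intestine libraries at 0.

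Among the neutral amino acid carriers of family 6, Slc6a18 (a glycine carrier of the late proximal tubule; chr13:73661752-73678023) lay at 401 to 617 CPM in kidney, with all 6 libraries above the other 90 and a margin of 5.67 (adjusted p = 4.22e-09). Its neighbour Slc6a19 (B0AT1, the main neutral amino acid carrier of gut and kidney; chr13:73679745-73704865) was shared between both organs. It had 382 ± 213 CPM in intestine and 218 ± 85.5 CPM in kidney (SD, n = 6 each), and the ranges of the 2 tissues overlapped (adjusted p = 1.0). Slc6a14, a broad amino acid carrier of the distal gut, had 469, 589, and 563 CPM in wild-type rectum and 477 and 347 CPM in 2 Scx-/- rectum libraries, with 0 in the other one. Its margin over lung was 3.82 (adjusted p = 5.50e-05), in rectum libraries that also held skin markers.

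The osmolyte and creatine carriers of family 6 were spread more widely. Slc6a6, the taurine carrier, was found in all 16 tissues, from 24.1 ± 28.4 CPM in adipose to 208 ± 107 CPM in bone and 316 ± 86.7 CPM in kidney (SD, n = 6). Slc6a8, the creatine carrier, went from 0 in all 6 adipose libraries through 141 ± 51.5 CPM in heart and 258 ± 80.1 CPM in kidney to 636 ± 421 CPM in intestine. Neither was called highest in 1 tissue, and the single intestine values of Slc6a8, from 218 to 1399 CPM, covered the means of kidney and rectum.

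In brain, 4 carriers were above the other 14 tissues in both cortex and hippocampus, against 1.78% of all genes, and 3 of them are described here. Slc22a17, a receptor for lipocalin in family 22 (chr14:54906304-54913132), had 756 to 1009 CPM in cortex and 801 to 1518 CPM in hippocampus, a margin of 3.54 over the next tissue (adjusted p = 4.40e-08). Slc6a11 (GAT3, the GABA carrier of astrocytes) had 79.4 to 178 CPM in cortex and 23.5 to 504 CPM in hippocampus, a margin of 3.93 (adjusted p = 0.00101). Slc7a14, a lysosomal member of family 7, passed more narrowly (adjusted p = 0.0399) and in 4 of the 12 alternative fits. Slc6a4, the serotonin carrier of raphe neurons and of gut and platelets, was highest in intestine by mean CPM, at 42.9 ± 73.2 CPM (n = 6), with 189 CPM in 1 library, and in adipose by the fit (margin 0.27 over intestine, adjusted p = 1.0). Slc6a9, the glycine carrier GLYT1, was highest in spleen by mean CPM, at 80.7 ± 88.6 CPM with 2 of 6 libraries at 0, and in adipose by the fit (margin 0.65 over spleen, adjusted p = 1.0). The pancreatic acinar genes that marked the adipose libraries summed to 5.27 to 49370 CPM in spleen. Its exons overlap those of Ccdc24 on the other strand over 27.8% of their bases.

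Within family 7, the apical light chain Slc7a9 (cystine and dibasic amino acids) and the basolateral light chains Slc7a7 and Slc7a8 were highest in kidney. Slc7a9 had 236 ± 54.3 CPM in kidney and 158 ± 116 CPM in intestine, which did not differ past the test (adjusted p = 0.597). Slc7a7 had 331 ± 119 CPM in kidney and 156 ± 152 CPM in intestine (adjusted p = 0.174), and Slc7a8 had 353 ± 87.4 CPM in kidney (adjusted p = 0.663). Slc7a13, a light chain of the straight proximal tubule, was called in kidney, where it lay at 0 to 565 CPM (adjusted p = 5.68e-05). Slc7a12, a small neutral amino acid carrier, was counted in no tissue but kidney, at 20.1 to 86.6 CPM (adjusted p = 0.0460, called in 2 of 12 alternative fits). Slc7a15 was called in intestine, where it lay at 0 to 170 CPM (adjusted p = 0.0357, called in 3 of 12).

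Slc7a5 (LAT1, a large neutral amino acid carrier) had 80.7 ± 53.4 CPM in the libraries labelled adipose, its highest tissue, and 4.64 ± 6.49 CPM in kidney. Slc7a1, the housekeeping cationic amino acid carrier, was at 0 in all 6 liver libraries and at 71.7 ± 87.8 CPM in vascular, its highest tissue by mean CPM (adipose by the fit). Slc7a10 (a carrier of D-serine and small amino acids) was highest in lung at 91.7 ± 76.5 CPM and in cortex at 60.6 CPM. Slc7a11 (xCT, the cystine and glutamate exchanger) was highest in cortex at 31.7 ± 14.3 CPM. None of Slc7a1, Slc7a5, Slc7a10, and Slc7a11 was called highest in 1 tissue.

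Slc22a6 (OAT1) and Slc22a8 (OAT3), the basolateral carriers that bring organic anions into proximal tubule cells, were called in kidney with margins of 4.56 (adjusted p = 2.74e-08) and 4.11 (adjusted p = 1.13e-10). Slc22a8 lay at 405 to 693 CPM in kidney, and in liver 5 of 6 libraries were at 0. Slc22a2 (OCT2, a basolateral organic cation carrier) lay at 82.9 to 431 CPM in kidney and was also called (adjusted p = 2.43e-05). Slc22a5 (OCTN2, the carnitine carrier) had 149 ± 43.0 CPM in kidney, a margin of 2.59 (adjusted p = 0.00809), called in 7 of 12 alternative fits. Its transcript is 90.2% identical to that of Slc22a21 over the aligned bases, so reads may be split between both. Slc22a13, a urate and nicotinate carrier, was called in kidney (adjusted p = 0.000531) and lay at 30.7 to 189 CPM. Slc22a7 (OAT2, an organic anion carrier) had 26.0 ± 26.8 CPM in liver and 16.9 ± 22.9 CPM in kidney and was not called.

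Of the carriers on chromosome 19, 10 belonged to family 22, and 8 of them had counts. In order of coordinate these were Slc22a19, Slc22a26, Slc22a27, Slc22a28, Slc22a29, Slc22a30, Slc22a8, and Slc22a6, between chr19:7673061-7711310 for the first and chr19:8618039-8628299 for the last (GRCm38). Slc22a26 and Slc22a27 were called highest in liver, at 16.3 to 170 CPM (adjusted p = 0.000613, called in 11 of 12 alternative fits) and 70.7 to 226 CPM (adjusted p = 7.60e-05), and Slc22a26 was at 0 in all 6 kidney libraries. On either side of them, Slc22a19 (4.13 to 107 CPM in kidney, adjusted p = 0.0477, called in 1 of 12 alternative fits) and Slc22a29 (64.8 to 159 CPM in kidney, adjusted p = 0.0303, called in 7 of 12) were called in kidney. Slc22a19 was at 0 in all liver libraries. The transcripts of Slc22a27 and Slc22a29 are 96.8% identical and those of Slc22a28 and Slc22a30 98.9% identical over their aligned bases, so the split of reads within each pair is uncertain.

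**Figure D3:**
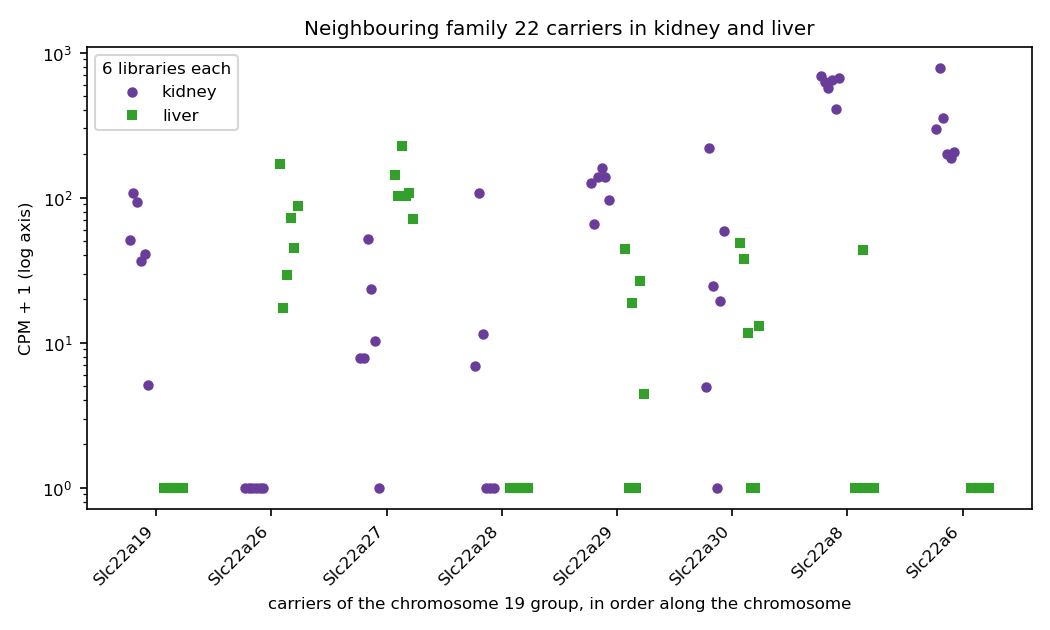
CPM + 1 on a log axis for the 8 neighbouring family 22 carriers with counts on chromosome 19, with 6 kidney libraries (circles) and 6 liver libraries (squares) each. Slc22a26 and Slc22a27 were higher in liver, and Slc22a8 and Slc22a6 in kidney.

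Of the 24 other genes of these pathways that were listed, 22 were in the table, 21 had a count, and 10 of 21 were called highest in 1 tissue, against 4.48% of all genes. Those in kidney included Tmem27 (collectrin, a partner of Slc6a18 and Slc6a19 in the tubule; margin 6.43, adjusted p = 1.85e-15), Pdzk1ip1 (a partner of Slc5a2; adjusted p = 1.06e-06), Pdzk1 (a scaffold of brush border carriers; adjusted p = 9.60e-05), and Slc3a1 (the heavy chain of Slc7a9; adjusted p = 0.00598). Bbox1, an enzyme of carnitine synthesis, was called in liver. Over the 16 tissue means, as a description that shares libraries and depth, Slc6a18 and Tmem27 had r = 0.9996 (rho = 0.680), Slc5a2 and Pdzk1ip1 r = 0.976 (rho = 0.563), and Slc7a9 and Slc3a1 r = 0.951 (rho = 0.660). Kidney held 94.8% of the summed means of Slc6a18 and 90.4% of those of Slc5a2, so their r rested largely on that tissue. Of the light chains of Slc3a2, Slc7a8 had r = 0.866 (rho = 0.632) with it, Slc7a7 r = 0.826 (rho = 0.316), and Slc7a5 r = 0.00189 (rho = 0.218).

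The genotypes were compared within each tissue, 3 against 3 libraries, with edgeR's quasi-likelihood test adjusted over the genes of that tissue. These fits first estimated the spread in a separate step, which the fits over all libraries, with that of all 32 groups, did not use. Between 22 and 51 carriers had a count per tissue, which made 550 carrier-by-tissue tests. Of these, 2 passed an adjusted p under 0.05, against 0.0914% of all tests summed over the 16 tissues. They were Slc7a2, higher in Scx-/- liver, and Slc22a6, lower in Scx-/- kidney. The libraries of the genotypes did not overlap in 36 of the 550 tests, against 7.96% of all tests.

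Slc7a2 (CAT2, a carrier of arginine, lysine, and ornithine; chr8:40862396-40922308) had 20.8, 179, and 84.7 CPM in wild-type livers and 236, 429, and 378 CPM in Scx-/- livers. Every Scx-/- library was above every wild-type library, on 78 counts in wild-type and 652 counts in Scx-/- libraries. The log2 fold change was 2.11 ± 0.42 (SE, adjusted p = 0.000335), where 0.299% of all liver genes were called higher. Liver was also the tissue in which Slc7a2 was called highest, with a margin of 2.38 over muscle (adjusted p = 0.00175). The call was made without any 1 of the 6 replicates (log2 fold change 1.61 to 2.95, adjusted p up to 0.0457) and by DESeq2 (adjusted p = 0.0210). It was lost where genes with low counts were removed (adjusted p = 0.254) or all 32 groups were fitted together (adjusted p = 0.679), with log2 fold changes of 2.01 and 2.39.

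Libraries with Xist and libraries with Y-linked transcripts were present in both liver genotypes. Wild-type replicates 1 and 3 and Scx-/- replicate 1 held 133 to 305 counts of Xist and 0 or 1 count of 4 Y-linked genes, and the other 3 livers held 28 to 84 Y-linked counts and 0 of Xist. Among the first kind Slc7a2 had 20.8 and 84.7 CPM in wild-type and 236 CPM in Scx-/- liver, and among the second 179 CPM in wild-type and 429 and 378 CPM in Scx-/- liver. The Scx-/- liver libraries were deeper, at 580110 to 768443 counts against 245271 to 481409. With all 6 thinned to the smallest total the log2 fold change was 2.04 (adjusted p = 0.000695).

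In muscle, Slc7a2 had 0, 3.44, and 16.9 CPM in wild-type and 70.0, 90.6, and 41.6 CPM in Scx-/- libraries, a log2 fold change of 3.07 ± 1.1 (SE) that did not pass the adjustment (adjusted p = 0.768). In cortex the log2 fold change was -2.08 ± 1.05 (SE, adjusted p = 0.830), with 71.4 CPM in 1 wild-type library and 1.07 to 14 CPM in the other 5. In vascular libraries, Slc7a2 was at 0 in all 3 wild-type and had 10 counts in all in Scx-/- libraries (adjusted p = 0.672). The effect in liver exceeded that in the other tissues by 1.62 ± 0.89 (SE, log2), which was not past the test of the difference (adjusted p = 1.0).

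Slc22a6 (OAT1; chr19:8618039-8628299) had 298, 783, and 356 CPM in wild-type and 199, 187, and 206 CPM in Scx-/- kidneys. The groups did not overlap, and wild-type replicate 2 was far above the other 5 libraries. The log2 fold change was -1.39 ± 0.31 (SE, adjusted p = 0.00687), where 0.117% of all kidney genes were called lower. Without wild-type replicate 2 it was -0.80 (adjusted p = 0.958), and the call was also lost with DESeq2 (adjusted p = 0.172), with low-count genes removed (adjusted p = 0.396), with libraries thinned (adjusted p = 0.0931), and with all groups fitted together (adjusted p = 0.939). In the settings that kept every library, the log2 fold change was -1.52 to -1.24. The difference from the other tissues was -0.70 ± 1.49 (SE, log2, adjusted p = 1.0). Its neighbour Slc22a8 had 693, 630, and 570 CPM in wild-type and 648, 405, and 664 CPM in Scx-/- kidneys, which overlapped (log2 fold change -0.25 ± 0.25, SE, adjusted p = 0.827).

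**Figure D4:**
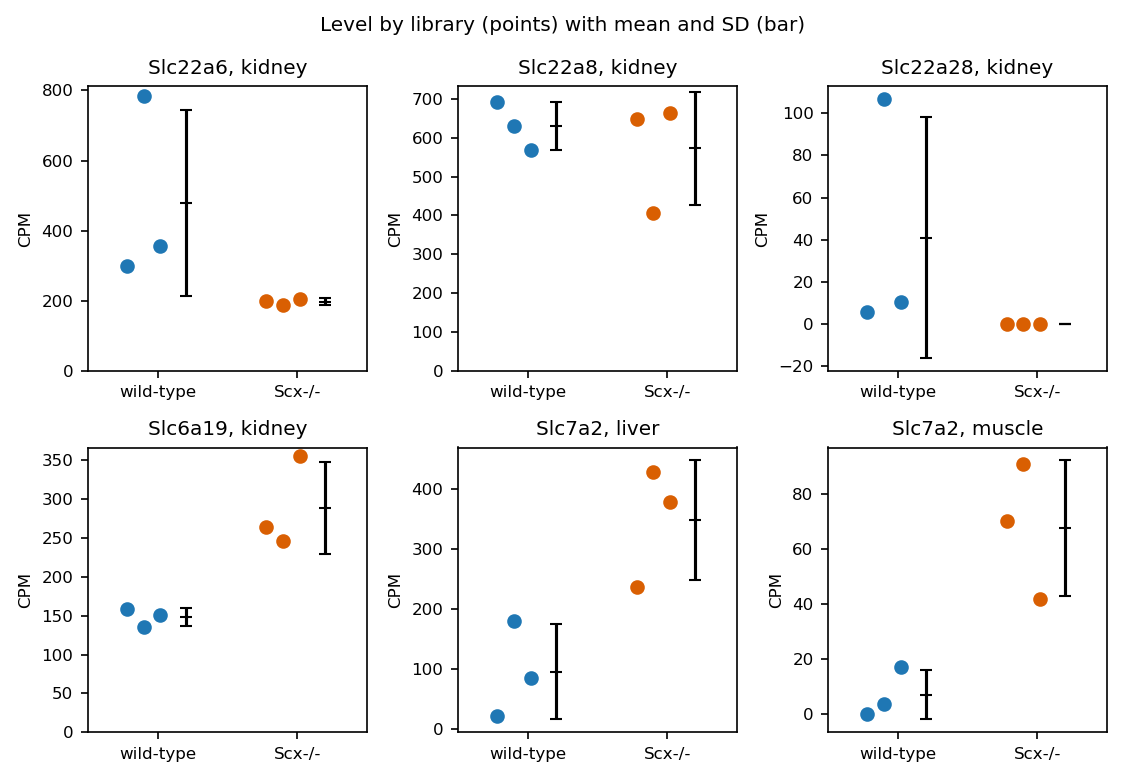
CPM of each library (points) with the mean and SD (bar beside them) for 5 carriers in kidney, liver, or muscle, by genotype. Slc7a2 in liver and Slc22a6 in kidney passed the adjusted test, and the values in the other panels did not.

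The study put its thresholds (an unadjusted p under 0.05 and a log2 fold change beyond 1 in either direction) on DESeq2 values and left out the vascular samples as contaminated. Here they were put on edgeR values with the vascular samples kept. At these thresholds, 13 of the 550 tests (2 of the 13 in vascular) were higher in Scx-/- tissue and 15 lower, against 1.85% of all tests higher and 1.85% lower. In kidney 0 carriers were past them higher (1.63% of all kidney genes) and 7 of 51 lower (2.69% of all kidney genes). The median log2 fold change in kidney was -0.21 over the carriers and -0.28 over all genes (-0.17 with library totals as scaling). The 7 were all of family 22: Slc22a6, Slc22a13, Slc22a19, Slc22a22, Slc22a23, Slc22a28, and Slc22a30. For 5 of the 7 the highest kidney value was that of wild-type replicate 2. Without that library 1 of the 7 was still past the thresholds, and 5 kept a negative sign, while 4 to 6 of the 7 were past them without any other single kidney library.

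Slc22a28 was counted in no tissue but kidney, at 5.91, 107, and 10.4 CPM in wild-type libraries and 0 in all 3 Scx-/- libraries. With the detection floor of 3 counts over the Scx-/- group, it was at least 14.1-fold lower, but at least 2.61-fold lower without wild-type replicate 2, and it did not pass the adjustment (adjusted p = 0.141). Slc22a30, whose transcript is 98.9% identical to that of Slc22a28 over 1485 aligned bases, had 3.94, 221, and 23.8 CPM in wild-type and 0, 18.4, and 57.8 CPM in Scx-/- kidneys (adjusted p = 0.791). Slc22a23, a carrier with no settled substrate, was lower in all 3 Scx-/- kidneys (42.5, 15.4, and 4.13 CPM against 101, 75.0, and 62.5 CPM, adjusted p = 0.791) and was at 0 in all 3 Scx-/- hearts (12 counts in wild-type hearts, adjusted p = 0.738). In the other direction, Slc6a19 had 159, 135, and 150 CPM in wild-type and 264, 246, and 355 CPM in Scx-/- kidneys, which did not overlap (log2 fold change 0.85 ± 0.36, SE, adjusted p = 0.791).

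**Figure D5:**
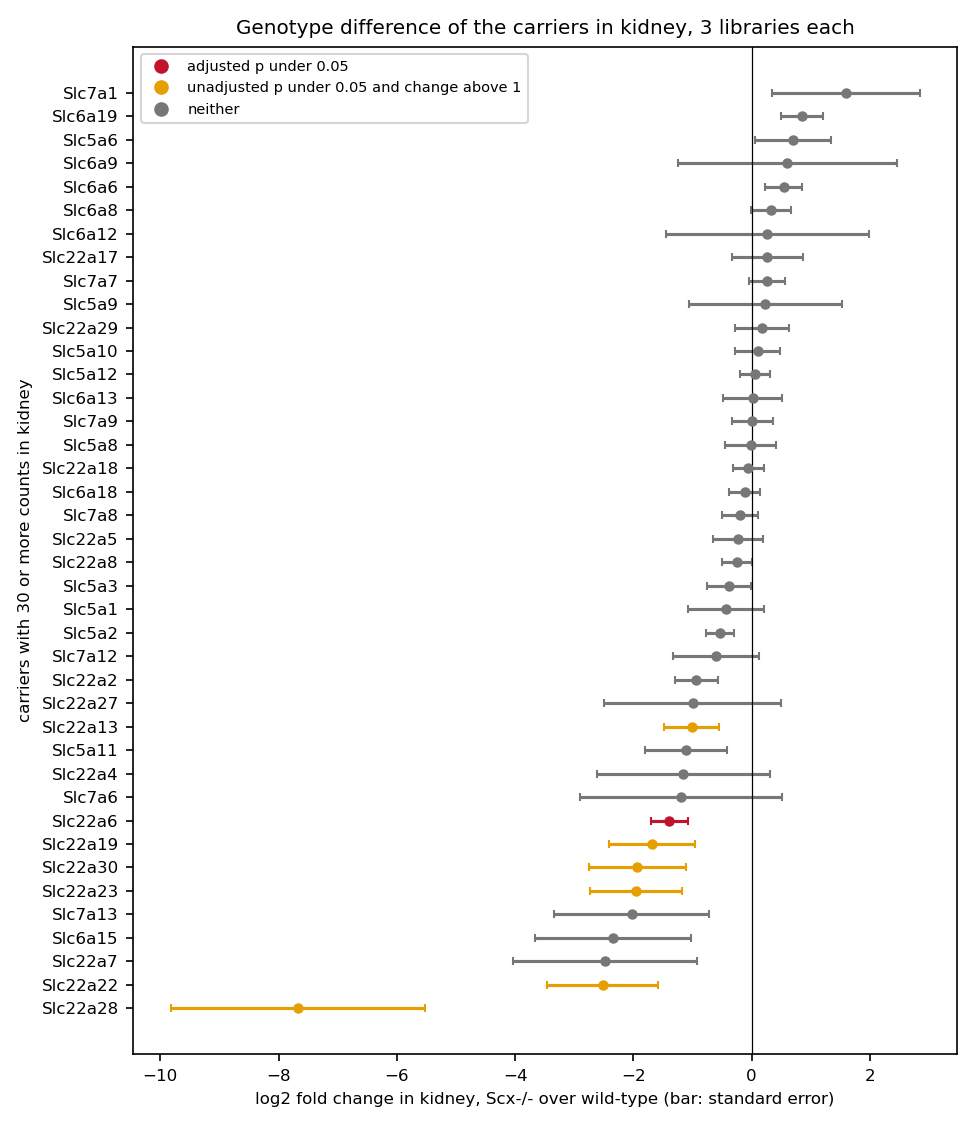
Log2 fold change of Scx-/- over wild-type kidney with its standard error for 40 carriers with at least 30 kidney counts, of which 15 were above 0 and 25 below. Slc22a6 alone passed the adjusted test, and the 6 marked carriers besides it reached only the thresholds of the study.

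Further values moved with genotype in the kidney libraries. Totals did not overlap, at 672218 to 1015500 counts in wild-type and 242429 to 447350 in Scx-/- libraries. Kap, an androgen-responsive gene of the proximal tubule, was at 14020, 24810, and 23460 CPM in wild-type and 10850, 7561, and 9685 CPM in Scx-/- kidneys. Wild-type replicates 1 and 3 and Scx-/- replicate 1 held 245 to 677 counts of Xist, and wild-type replicate 2 and Scx-/- replicates 2 and 3 held 91 to 125 Y-linked counts and 0 of Xist. Among the Xist libraries Slc22a6 had 298 and 356 CPM in wild-type and 199 CPM in Scx-/- kidney, and among the others 783 CPM in wild-type and 187 and 206 CPM in Scx-/- kidneys. With libraries thinned to the smallest kidney total, the log2 fold change of Slc22a6 was -1.25. The part of Kap and of the X- and Y-linked transcripts in the kidney values was not tested.

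Past the thresholds of the study in 2 or more tissues were 4 of the 64 carriers, against 6.4% of all genes: Slc7a2 and Slc22a23, described above, Slc7a7, and Slc22a8. Slc7a7 had 354, 188, and 309 CPM in wild-type and 18.2, 66.6, and 0 CPM in Scx-/- intestine (log2 fold change -3.77 ± 1.61, SE, adjusted p = 0.652), on 190 and 3 counts, where the median over all intestine genes was -1.63. In muscle it had 18 counts in wild-type and 0 in Scx-/- libraries (adjusted p = 0.771). Slc22a8 had 6 counts in 1 Scx-/- intestine library, replicate 3, and 0 in the other 5. That library also held 32 counts of Kap, the proximal tubule gene (1208 CPM, against 12.9 to 199.9 CPM in the other intestine libraries). Slc22a8 had 12 counts in wild-type liver and 0 in Scx-/- liver. Slc7a8, past them in cortex alone, had 97.1, 88.7, and 105 CPM in wild-type and 20.4, 55.5, and 26.2 CPM in Scx-/- cortex (log2 fold change -1.48 ± 0.49, SE, adjusted p = 0.830).

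With all 16 tissues in 1 fit and tissue as a term, 0 of the 64 carriers were called for genotype by edgeR, against 0.485% of all genes. At an unadjusted p under 0.05 there were 15 (8.13% of all genes), of which 4 were higher (4.68% of all genes) and 11 lower (3.45%) in Scx-/- libraries. DESeq2 called 0 after adjustment and 5 before (3.74% of all genes). The lowest adjusted p was that of Slc22a21 (a carnitine carrier like Slc22a5), with a log2 fold change of -1.71 ± 0.50 (SE, adjusted p = 0.0966). Slc22a5 had 0.94 ± 0.35 (SE, adjusted p = 0.30), and reads may be split between both. Slc22a21 was called without 6 of the 8 libraries under 50000 counts (each genotype of a tissue kept 2) and without wild-type replicate 3. In 12 of 16 tissues, replicates 1 and 3 of wild-type and 1 of Scx-/- had more Xist than Y-linked counts and the other 3 the reverse. In cartilage, by contrast, wild-type replicate 1 had 29 Y-linked and 3 Xist counts, and Scx-/- replicate 2 had 3 and 116. In bone, Scx-/- replicate 1 had 56 Y-linked and 3 Xist counts, and Scx-/- replicate 2 had 0 and 68. The fits over all tissues treated the 96 libraries as independent, and the part of the Xist and Y-linked pattern in them was not tested. Of the listed pathway genes, 0 of 250 gene-by-tissue tests were called by edgeR or by DESeq2, and 12 had an unadjusted p under 0.05 by edgeR, against 4.01% of all tests.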

How the data were processed

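RNA from 16 tissues of mice of both genotypes, aged 3 weeks, was barcoded by sample during reverse transcription and pooled (MuSeq). The authors made the deposited values, 1 table of raw read counts per gene symbol for 96 libraries, by mapping to mm10 with Bowtie2 and counting with HTSeq. The sources used here give no versions, no annotation, and no word on molecular identifiers. Shared or near-identical sequence could split reads between genes. Symbols at 0 in every library of a fit were removed, and the table was otherwise used whole.

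CPM was computed on library totals. Groups came from the labels. Tests used edgeR 4.0.16 (R 4.3.3; TMM scaling, quasi-likelihood test, Benjamini-Hochberg adjustment over all genes of the fit) with a call at an adjusted p under 0.05. For a highest tissue, the largest p over the other tissues was adjusted. DESeq2 1.42.0, other scalings, a filter on low counts, thinning, a replicate block, 1 fit over 32 groups, and leaving out libraries were alternatives. The fits were tested on simulated counts. Libraries held 11244 to 1658192 counts, so that 3 counts were taken as the floor, which covers counting error only. Positions are from GENCODE M21 (GRCm38, the assembly of mm10).

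The carriers and lists were chosen with earlier results of these data known. Named were up to 4 carriers per tissue with the largest margins, those called for genotype, those past the thresholds of the study in 2 or more tissues, and textbook members by role. Slc5a8, Slc5a10, Slc5a11, Slc7a13, Slc22a21, Slc22a22, Slc22a28, Slc22a29, Slc22a30, and the symbols listed at 0 other than Slc22a12 were named after their values were seen. A few carriers and pathway genes are not reported here by name or drawn.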

Additional observations from a re-analysis of the deposited data

Results flagged for a closer look

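For 4 of the 64 carriers, and for 2709 of all 22493 genes, the 3 Scx-/- libraries lay apart from the 3 wild-type libraries in opposite directions in different tissues, and the difference between tissues was not tested. None of these values passed the adjusted edgeR test, and counts are summed over 3 libraries. Slc5a3, the myo-inositol carrier, had a log2 fold change of 2.80 in bone (2 counts in wild-type and 21 in Scx-/-) and -2.32 in lung (5 and 1 counts). Slc7a1, the cationic amino acid carrier, had -1.94 in cartilage (56 and 13 counts) and 2.03 in muscle (5 and 38 counts). Slc7a5, the large neutral amino acid carrier LAT1, had a fitted 5.24 in cartilage (0 and 14 counts, at least 4.79-fold higher with a floor of 3 counts over the wild-type group), 3.73 in stomach (3 and 47 counts), and -2.34 in liver (14 and 4 counts). Slc7a8, the related carrier LAT2, had -1.48 in cortex (283 and 116 counts), -1.46 in hippocampus (53 and 46 counts), and 2.77 in muscle (5 and 49 counts). Without the library labelled Scx-/- cartilage replicate 1, which held counts of Scx, the fitted cartilage values were -1.37 for Slc7a1 and 5.60 for Slc7a5 (0 and 12 counts). The cartilage and bone libraries also departed from the Xist and Y-linked pattern of most tissues, and the part of this in their values was not tested.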

How the results depend on the processing

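The 2 carriers called for genotype within a tissue became 28 tests at the thresholds of the study, 0 with low-count genes removed, 0 in 1 fit over all 32 groups, 1 with thinned libraries, 1 with DESeq2, and 1 to 2 without 1 replicate (1 without wild-type replicate 2). With library totals or DESeq2-style size factors both were called. The replicate number as a block left 1 call within tissues (Slc7a2 in liver), 0 over all tissues, 17 of the 20 carriers highest in 1 tissue, and 4 in brain. The numbers did not pair wild-type with Scx-/- libraries within tissues: correlations of same-numbered libraries were -0.18 to 0.047. Over all tissues 0 calls became 1 (Slc22a21) without 6 of the 8 libraries under 50000 counts, and 0 to 1 without 1 replicate (1 without wild-type replicate 3). The 20 carriers highest in 1 tissue were 8 in wild-type and 6 in Scx-/- libraries alone, and 14 to 18 calls were made without 1 replicate (14 to 17 of the same 20). The 4 of brain were 1 and 2 in the genotypes alone, 3 to 4 calls without 1 replicate (3 of the same 4), and 6 calls with DESeq2-style size factors. The difference of Slc22a6 between kidney and the other tissues was -1.12 to 0.097 without 1 replicate, and turned positive without wild-type replicate 2. Where no value above shows it, the cause was not tested. The 25 carriers with their highest mean in kidney were 23 to 27 by other measures. With libraries thinned to 50000 counts, the mean number of carriers counted per library was 13.5 in place of 18.8.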
